A study of Mus musculus with 9 samples.

Results

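The genes described here are 30 mouse genes of the embryonic stem cell and neural Sox2 programmes, read against Sox2 binding sites in lung epithelial cells. They were chosen by name, as 14 pluripotency genes and 16 neural genes, from the 21887 protein-coding genes of the RefSeq annotation, and all 30 matched an annotated gene. The choice was made with earlier results of these data known. The question was whether Sox2 in lung cells used the targets it is known for in other tissues. A gene counted as near a site when the summit of a listed peak, the base with the highest enrichment, lay inside the gene's span or within 50 kb of it. Chromatin immunoprecipitation followed by sequencing (ChIP-seq) with a goat antibody mapped Sox2 in lung epithelial cells of C57BL/6 mice aged 8 weeks. There were 3 groups. Wildtype cells carried neither change, a second group expressed ectopic Sox2, and the last expressed ectopic Sox2 and also lacked Nkx2-1 by deletion. The last is called Nkx2-1 deletion below, and its cells carry ectopic Sox2 throughout. The sources used here do not state how Sox2 was driven, in which cells Nkx2-1 was deleted or whether animals were pooled. Each group had 1 Sox2 ChIP library, so no difference between groups could be checked on replicates or given a p-value. Peak lists hold no expression values, so neither the cell type nor the 2 genetic changes could be checked against marker genes.

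Sox2 is an HMG-box transcription factor that binds a short motif in the minor groove, usually beside a partner factor that helps to set which sites are used. In embryonic stem cells the partner is Oct4, encoded by Pou5f1, and the pair occupy composite Sox-Oct elements at genes such as Nanog, Fgf4, Utf1, Lefty1 and Sox2 itself. In neural progenitors Sox2 works with POU factors such as Brn2 (Pou3f2) and with Pax6, and it holds progenitor genes such as Nes and Fabp7 active. In the lung and foregut Sox2 marks the proximal airway and oesophagus, while Nkx2-1 sets lung identity.

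Only Nanog, Zfp42 and Fabp7 had a listed summit within 50 kb in any library, so the 250 bases before their transcription starts are shown, as RefSeq gives them for GRCm38.p6, the build of the peak lists (mm10). Each runs 5′ to 3′ on the gene's own strand. The Nanog window is chr6:122707239-122707488 on the plus strand, the Zfp42 window chr8:43307010-43307259 on the minus strand, and the Fabp7 window chr10:57784673-57784922 on the plus strand. Capitals mark matches, on either strand, to the Sox letters ACAAAG or ACAATG, to the octamer ATGCAAAT that Oct4 binds, or to the Sox-Oct composite, which is CATTGT and ATGCAAA with 1 free base between them.
Nanog: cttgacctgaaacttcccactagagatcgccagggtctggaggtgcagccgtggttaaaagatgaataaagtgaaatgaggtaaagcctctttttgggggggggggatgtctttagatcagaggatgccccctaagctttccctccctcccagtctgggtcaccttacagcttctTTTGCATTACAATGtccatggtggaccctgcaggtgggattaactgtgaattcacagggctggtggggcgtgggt
Zfp42: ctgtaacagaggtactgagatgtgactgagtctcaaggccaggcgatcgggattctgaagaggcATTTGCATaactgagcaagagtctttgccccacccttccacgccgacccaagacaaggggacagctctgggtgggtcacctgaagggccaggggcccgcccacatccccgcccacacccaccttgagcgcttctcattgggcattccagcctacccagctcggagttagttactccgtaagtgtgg
Fabp7: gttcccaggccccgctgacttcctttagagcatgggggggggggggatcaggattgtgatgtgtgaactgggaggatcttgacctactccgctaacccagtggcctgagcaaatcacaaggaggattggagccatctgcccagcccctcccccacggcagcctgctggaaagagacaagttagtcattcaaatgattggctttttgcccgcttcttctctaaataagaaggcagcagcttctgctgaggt
The Nanog window held the composite element, from 75 to 62 bases before the start, and the Sox match ACAATG lies inside it. The Zfp42 window held an octamer, from 186 to 179 bases before the start, and no Sox match. No match was found in the Fabp7 window.

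No library had a listed summit in any of these windows. In the order wildtype, ectopic Sox2, Nkx2-1 deletion, the Nanog window was 108.5 kb, 3659 kb and 51.4 kb from its nearest summit. The Zfp42 window was 42.1 kb, 1071 kb and 42.2 kb from it, and the Fabp7 window 10464 kb, 20233 kb and 21.4 kb. Windows were matched for 21 of the 30 genes, 28 windows in all, and none of the 28 held a summit in any library, counting also the 50 bases after the start. Summits in such windows were rare throughout the genome, with 0.0752% of 21263 windows in wildtype, 0.136% for ectopic Sox2 and 0.169% for Nkx2-1 deletion. Over those 21263 windows, 22.8% held either Sox form in the 250 bases before the start and 1.58% held the octamer. The composite was found in 2 windows, or 0.00941%, and both belong to Nanog. Of the 21 genes with a window, Hes5, Lin28a, Nanog, Olig2, Pax6, Pou5f1 and Sox2 held a Sox form, 7 of 21, beside 25.8% of the 17492 genes with a window. A match is a description of the letters and not evidence of a bound site.

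The peak lists differed in length, with 552 summits for wildtype, 229 for ectopic Sox2 and 2589 for Nkx2-1 deletion. The recovered ChIP coverage was 0.963, 0.764 and 1.45 fragments per position. A listed summit rested on at least 10 ChIP fragments in the wildtype and ectopic Sox2 lists and on at least 15 in the Nkx2-1 deletion list, so weaker occupancy could not be seen. Longer lists put more genes near a summit, and each count below is therefore read against the share of all protein-coding genes counted the same way in the same library.

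Summits near the 30 genes were counted beside those near all protein-coding genes. No summit fell inside the span of any of the 30 in any library, where 1.01%, 0.439% and 4.42% of all genes held one in wildtype, ectopic Sox2 and Nkx2-1 deletion. In wildtype 1 of 30 had a summit within 50 kb, Zfp42, beside 2.85% of all protein-coding genes. With ectopic Sox2 the count was 0 of 30, beside 1.53% of all genes. With Nkx2-1 deletion it was 3 of 30, or 10.0%, beside 13.1% of all genes, namely Nanog, Zfp42 and Fabp7. By programme, the pluripotency genes gave 1 of 14 in wildtype, 0 of 14 for ectopic Sox2 and 2 of 14 for Nkx2-1 deletion, and the neural genes gave 0, 0 and 1 of 16. The counts over all 30 genes lie near the background, and they rest on too few genes to show a difference from it. The 30 genes were short, with a median span of 7.43 kb against 17.2 kb over all genes, and had a median of 1 other gene within 50 kb against 3.

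**Figure D1:**
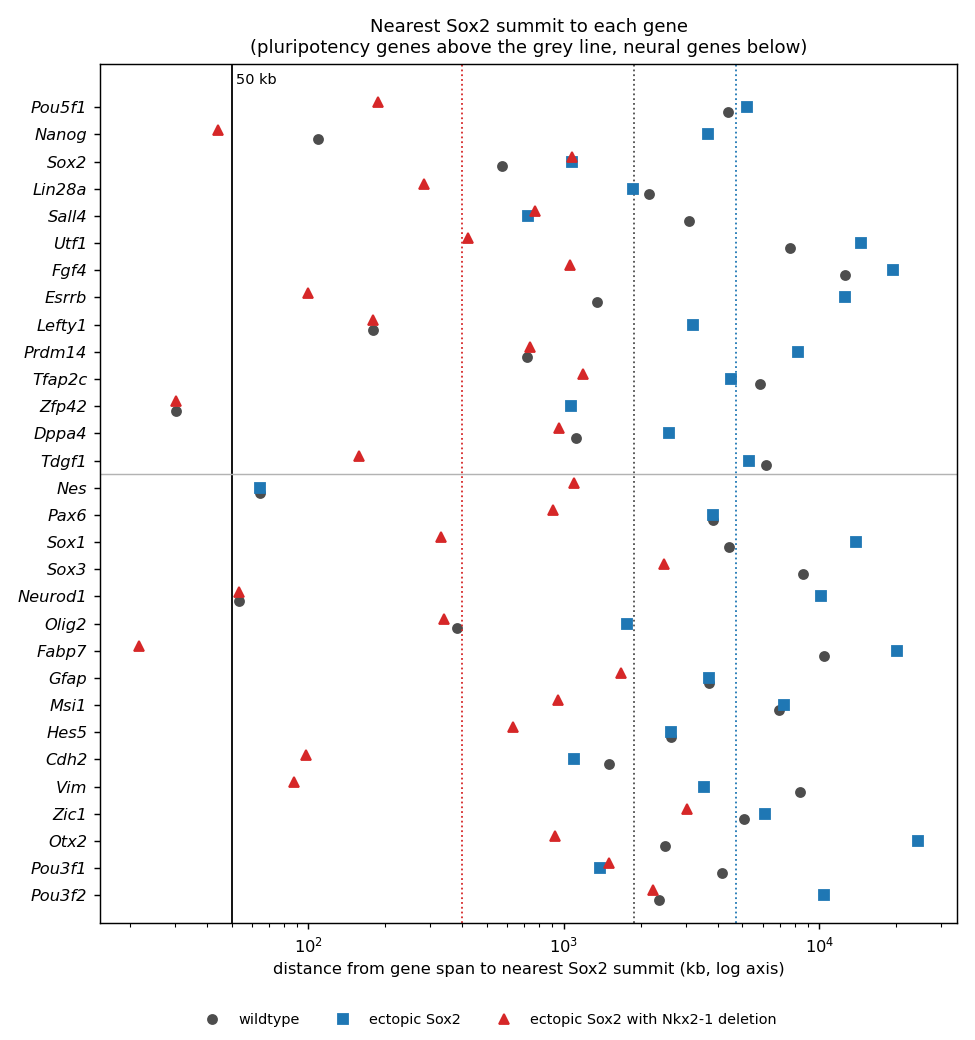
Distance from each of the 30 gene spans to its nearest Sox2 summit in each library (log axis, kb), with the 50 kb limit as a solid line and the median over all protein-coding genes in each library as a dotted line of the same colour. Only Nanog, Zfp42 and Fabp7 reach inside 50 kb, and Sox3 has no point with ectopic Sox2 because no summit was listed on the X chromosome there.

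Distances to the nearest summit were compared with those of all genes. In the order wildtype, ectopic Sox2, Nkx2-1 deletion, the median over the 30 genes was 2858, 4171 and 684 kb, beside 1887, 4728 and 400.4 kb over all protein-coding genes. The 14 pluripotency genes had medians of 1751, 4085 and 352 kb, each a little below that of all genes. The 16 neural genes had medians of 3755, 4985 and 913 kb, each above that of all genes. Of the 16 neural genes, 4 were nearer to a summit than the median gene in wildtype, 8 for ectopic Sox2 and 6 for Nkx2-1 deletion. For the 14 pluripotency genes these counts were 7, 8 and 7.

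Among the pluripotency genes, Zfp42 was the one with a site within 50 kb in more than 1 library. Zfp42 encodes Rex1, a zinc-finger protein used as a marker of naive stem cells, and it spans 43295067 to 43307009 on chromosome 8. The wildtype summit lay 30.2 kb beyond the 3′ end of the gene, in the region 43264777 to 43264981, with 20 ChIP fragments (exact Poisson 95% interval 12.2 to 30.9), an authors' fold over the control background of 5.27 and a −log10 q of 3.94. With Nkx2-1 deletion an overlapping region, 43264673 to 43264993, had 47 fragments (34.5 to 62.5), a fold of 6.97 and a −log10 q of 8.67, with its summit 34 bp from the wildtype one. Fragments here are whole ChIP fragments recovered from the fold and p-value of each summit, and the intervals cover counting error only. After division by the depth ratio of 1.51, the Nkx2-1 deleted library had 1.56 times the wildtype fragments there (exact conditional binomial 95% interval 0.906 to 2.78), an interval that includes 1. The ectopic Sox2 list had no region there, and its nearest summit to Zfp42 lay 1.07 Mb away. Zfp42 was the closest protein-coding gene to this site, and the next, Triml2, was 71.0 kb from the wildtype summit. By −log10 q the site ranked 423 of 552 in wildtype and 629 of 2589 with Nkx2-1 deletion, so in wildtype it was among the weaker calls.

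Nanog, the homeobox factor that sustains pluripotency, came within 50 kb of a site in the Nkx2-1 deletion list alone. The gene spans 122707489 to 122714633 on chromosome 6. The summit lay 44.3 kb beyond its 3′ end, in the region 122758792 to 122759045, with 38 fragments (26.9 to 52.2), a fold of 8.54 and a −log10 q of 10.3, rank 423 of 2589. It fell inside the span of Slc2a3, which encodes the glucose transporter Glut3, so that Slc2a3 and not Nanog was the nearest gene. No region was listed there in the other libraries. Nanog was the gene just inside the 50 kb limit, and Neurod1, at 53.7 kb, was the one just outside it.

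On the other side of Nanog, a region in Apobec1 was listed in both wildtype and the Nkx2-1 deleted library, 108.8 kb from Nanog. Apobec1 encodes a cytidine deaminase and sits beside Gdf3 and Dppa3, which are expressed in stem cells and the germ line. The wildtype region, 122598584 to 122598869, had 26 fragments (17.0 to 38.1), and that with Nkx2-1 deletion, 122598556 to 122598858, had 92 (74.2 to 113). Scaled by depth, the library with Nkx2-1 deletion had 2.35 times the wildtype fragments (1.51 to 3.78). Of the 6 regions near the 30 genes that 2 libraries shared within 250 kb, this was the one whose interval did not include 1. The control background at the summit was also higher with Nkx2-1 deletion, equal to 14.2 ChIP fragments against 4.05 in wildtype, and its part in the ratio was not tested. The summit was 6.71 kb from Gdf3 in wildtype. Another site on the 3′ side of Nanog, 90.1 kb away and with 36 fragments (25.2 to 49.8), was listed with Nkx2-1 deletion alone and was closest to Slc2a3.

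Pou5f1, Sox2, Fgf4 and Utf1 had no summit within 100 kb in any library. Most genes had none there either. The share with one was 4.66% of all genes in wildtype, 2.45% for ectopic Sox2 and 20.7% for Nkx2-1 deletion. Pou5f1, which encodes Oct4, had its nearest summit 4.39 Mb away in wildtype, 5.21 Mb for ectopic Sox2 and 187 kb for Nkx2-1 deletion, where the site lay inside Ddr1, a collagen receptor gene. Sox2 itself had distances of 573 kb, 1.07 Mb and 1.07 Mb. Fgf4 and Utf1, known targets of Sox-Oct elements in their enhancers, were the farthest of the pluripotency genes in wildtype and with ectopic Sox2: Fgf4 at 12.6 and 19.4 Mb and Utf1 at 7.67 and 14.5 Mb. With Nkx2-1 deletion they lay 1.06 Mb and 421 kb away. Esrrb, an orphan nuclear receptor of the naive state, had a summit 99.2 kb upstream with Nkx2-1 deletion, inside Gpatch2l, with 37 fragments. In that library 20.6% of all genes were as near to a summit as Esrrb. In the other libraries its nearest summit was 1.35 Mb and 12.6 Mb away.

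The remaining pluripotency genes of the 14 had no summit within 100 kb, like most genes in each library. Some lay nearer to one than the median gene did. Lefty1, a Nodal inhibitor, had a region inside Nvl at 178.9 kb in wildtype and in the Nkx2-1 deleted library, with 24 fragments (15.4 to 35.7) and 40 (28.6 to 54.5), a depth-scaled ratio of 1.11 (0.651 to 1.92). In wildtype 7.52% of all genes were as near to a summit as Lefty1, and with Nkx2-1 deletion 30.8%. Tdgf1, the Nodal co-receptor Cripto, had its nearest summit 157.9 kb upstream with Nkx2-1 deletion, where 28.5% of all genes were as near. The distances were 6.19 Mb in wildtype and 5.31 Mb with ectopic Sox2. Lin28a, which binds let-7 precursors, lay 2.15 Mb, 1.86 Mb and 283 kb from a summit in the order wildtype, ectopic Sox2, Nkx2-1 deletion. Sall4, a zinc-finger factor, lay 3.08 Mb, 722 kb and 770.3 kb away. Prdm14, Dppa4 and Tfap2c, factors of the naive state and germ line, were between 715 kb and 8.26 Mb from a summit over the 3 libraries.

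**Figure D2:**
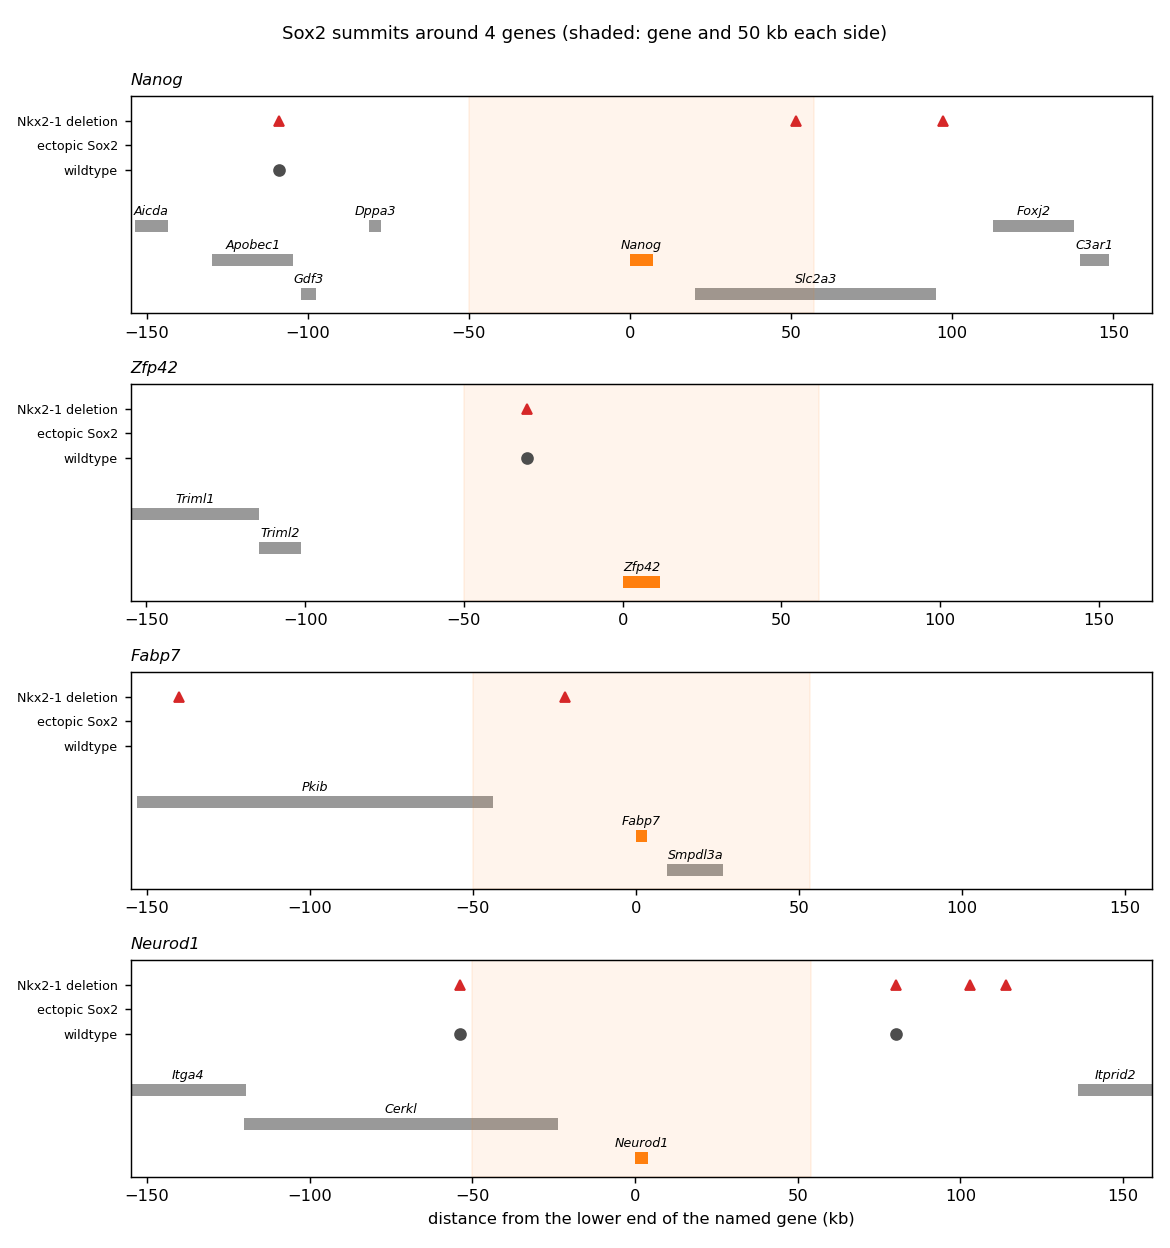
Sox2 summits (symbols, by library) and protein-coding genes (bars, the named gene in orange) around Nanog, Zfp42, Fabp7 and Neurod1, in kb from the lower end of the named gene, with the gene and 50 kb on each side shaded. Zfp42, Neurod1 and Nanog (the site in Apobec1) have sites within 34 bp of each other in wildtype and with Nkx2-1 deletion, and none of the 4 loci has a site with ectopic Sox2.

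Among the neural genes, Fabp7 had the nearest site of all 30. Fabp7 encodes the brain lipid-binding protein of radial glia and spans 57784923 to 57788450 on chromosome 10. With Nkx2-1 deletion a summit lay 21.7 kb upstream, in the region 57763114 to 57763358, with 50 fragments (37.1 to 65.9), a fold of 7.39 and a −log10 q of 10.5, rank 394 of 2589. It was almost midway between Fabp7 and Pkib, a protein kinase A inhibitor gene 22.1 kb away, and Smpdl3a also lay within 50 kb. The nearest summit was 10.5 Mb away in wildtype and 20.2 Mb away with ectopic Sox2. With Nkx2-1 deletion 8.39% of all genes had a summit as near as that of Fabp7, against 9.89% for Zfp42 and 12.3% for Nanog. In wildtype the share was 2.14% for Zfp42, 2.96% for Neurod1 and 3.36% for Nes, and in the ectopic Sox2 list it was 1.78% for Nes.

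Neurod1, a proneural bHLH factor that also acts in lung neuroendocrine cells, had sites on both sides beyond 50 kb, the nearer just outside that limit. It spans 79452637 to 79456636 on chromosome 2. The nearer site, 53.7 kb beyond the 3′ end and inside Cerkl, was listed in wildtype with 29 fragments (19.4 to 41.6) and a −log10 q of 11.6, rank 56 of 552. With Nkx2-1 deletion it had 40 fragments (28.6 to 54.5) and ranked 1974 of 2589, and the depth-scaled ratio was 0.915 (0.553 to 1.53). The other, 76.2 kb upstream, lay in no gene and had 22 fragments (13.8 to 33.3) in wildtype and 50 (37.1 to 65.9) with Nkx2-1 deletion, where it ranked 108. Its ratio was 1.51 (0.896 to 2.61). Both intervals include 1. At the site in Cerkl the control background equalled 2.16 ChIP fragments in wildtype and 7.09 with Nkx2-1 deletion. Further upstream, 99.0 kb and 110 kb from the gene, the library with Nkx2-1 deletion listed 2 more summits with 43 fragments (31.1 to 57.9) and 35 (24.4 to 48.7). With ectopic Sox2 the nearest summit to Neurod1 was 10.1 Mb away.

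Nes, which encodes the progenitor intermediate filament nestin, was the nearest of the 30 genes to a site with ectopic Sox2. The site lay 64.9 kb upstream, inside Hdgf, a growth factor gene, at chromosome 3, 87906141 to 87906350, with 39 fragments (27.7 to 53.3). Its fold of 3.70 ranked 223 of 229, and its −log10 q of 3.50 ranked 186 of 229. Wildtype listed the same region, 87906135 to 87906334, with 32 fragments (21.9 to 45.2), a depth-scaled ratio of 1.54 (0.938 to 2.53) for ectopic Sox2 over wildtype. The control background at the summit equalled 9.40 ChIP fragments with ectopic Sox2 and 6.75 in wildtype, and its part in the ratio was not tested. The Nkx2-1 deleted library listed nothing there, and its nearest summit to Nes lay 1.10 Mb away. The region had 6 protein-coding genes within 50 kb and Nes was not among them.

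Cdh2 and Vim, the mesenchymal adhesion and filament genes of neural progenitors, had distant sites with Nkx2-1 deletion alone. Cdh2, which encodes N-cadherin, was the closest gene to summits 98.1 kb and 107 kb from its span on chromosome 18, with Chst9, the next gene, 722 kb from the second. They had 48 fragments (35.4 to 63.6) and 61 (46.7 to 78.4), and the second, with a fold of 10.3, ranked 96 of 2589 by −log10 q. Elsewhere the nearest summit to Cdh2 was at 1499.8 kb for wildtype and at 1096 kb for ectopic Sox2. Vim, the vimentin gene, had a summit 87.5 kb upstream inside Cubn, with 49 fragments (36.3 to 64.8). Neither gene is confined to the nervous system.

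**Figure D3:**
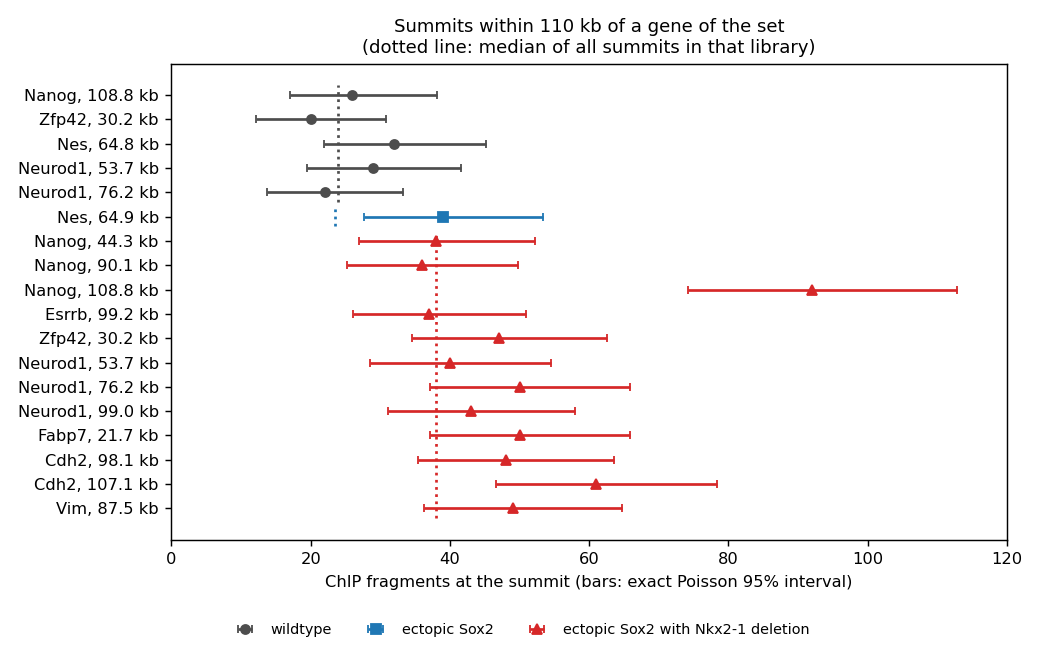
ChIP fragments at each summit within 110 kb of one of the 30 genes, with exact Poisson 95% intervals, and the median of all summits in the same library as a dotted line. The intervals of 3 summits lie wholly above their library's median. With Nkx2-1 deletion these are the site in Apobec1, 108.8 kb from Nanog, with 92 fragments and the farther Cdh2 site with 61 fragments. With ectopic Sox2 it is the Nes site with 39 fragments, which ranked 223 of 229 by fold. The control background at these sites equalled 14.2, 3.78 and 9.40 ChIP fragments in turn.

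The remaining neural genes of the 16 had no summit within 250 kb in any library. Most genes had none there either. The share with one was 10.0% of all genes in wildtype, 5.19% for ectopic Sox2 and 38.0% for Nkx2-1 deletion. Sox1 and Sox3, the SoxB1 relatives that share targets with Sox2, lay 331 kb and 2.46 Mb from a summit with Nkx2-1 deletion. In wildtype the distances were 4.42 Mb for Sox1 and 8.60 Mb for Sox3. Sox3 is on the X chromosome, where wildtype listed 3 summits, ectopic Sox2 0 and Nkx2-1 deletion 34. Pax6 lay 3.82 Mb away in wildtype and with ectopic Sox2 and 906 kb away with Nkx2-1 deletion. Pou3f1 and Pou3f2, the POU partners, were between 1.39 and 10.5 Mb from a summit over the 3 libraries. Otx2, a head and forebrain factor, lay 2.48 Mb, 24.4 Mb and 920.2 kb away, and Zic1 was the farthest of the 30 with Nkx2-1 deletion, at 3.03 Mb. Olig2, the oligodendrocyte lineage factor, was 380.4 kb from a summit in wildtype and 339.7 kb with Nkx2-1 deletion. As near as Olig2 were 14.1% of all genes in wildtype and 45.6% with Nkx2-1 deletion. Hes5 (a Notch effector), Msi1 (an RNA-binding protein of progenitors) and Gfap (the astrocyte filament) had their nearest summits with Nkx2-1 deletion at 634 kb, 952 kb and 1.67 Mb.

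Wider windows brought in more genes in wildtype and with Nkx2-1 deletion, while the ectopic Sox2 count stayed at 1 of 30 from 100 to 500 kb as the share of all genes grew. At 100 kb the counts were 3 of 30 in wildtype, 1 for ectopic Sox2 and 7 for Nkx2-1 deletion, beside 4.66%, 2.45% and 20.7% of all genes. At 250 kb they were 5, 1 and 10, beside 10.0%, 5.19% and 38.0%. At 500 kb they were 6, 1 and 14, beside 17.8%, 9.36% and 56.2%, and at 1000 kb 8, 2 and 21, beside 30.8%, 16.2% and 75.0%. Pluripotency genes with Nkx2-1 deletion reached 11 of 14 at 1000 kb and neural genes 10 of 16. Within 10 kb the count was 0 of 30 in each library, where 1.37%, 0.736% and 6.47% of all genes had a summit. Over the 3 libraries 3 genes had a summit within 50 kb, 8 within 100 kb and 11 of 30 within 250 kb. The share of all genes was not counted over the 3 libraries together, so these totals have no background beside them. With Nkx2-1 deletion alone that share was 38.0% at 250 kb.

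Other ways of counting were also read against the share of all genes. Counted as the nearest gene to a summit, 1 of 30 was found in wildtype (2.19% of all genes), 0 in the ectopic Sox2 list (1.02%) and 3 after Nkx2-1 deletion (8.51%), where Cdh2 replaced Nanog. When a −log10 q of 5 or more was required the counts were 0 (1.88% of all genes), 0 (1.18%) and 3 (8.83%), Zfp42 being lost in wildtype. Without regions found in all 3 lists they were 1 (2.55%), 0 (1.21%) and 3 (12.9%). With each list held to its 229 highest summits by −log10 q, the count was 0 of 30 in every library, beside 1.42%, 1.53% and 1.48% of all genes. The Fabp7, Nanog and Zfp42 summits found after Nkx2-1 deletion ranked 394, 423 and 629 of 2589. The cut therefore removed them by definition. At such shares a count of 0 of 30 cannot be told from that of all genes.

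**Figure D4:**
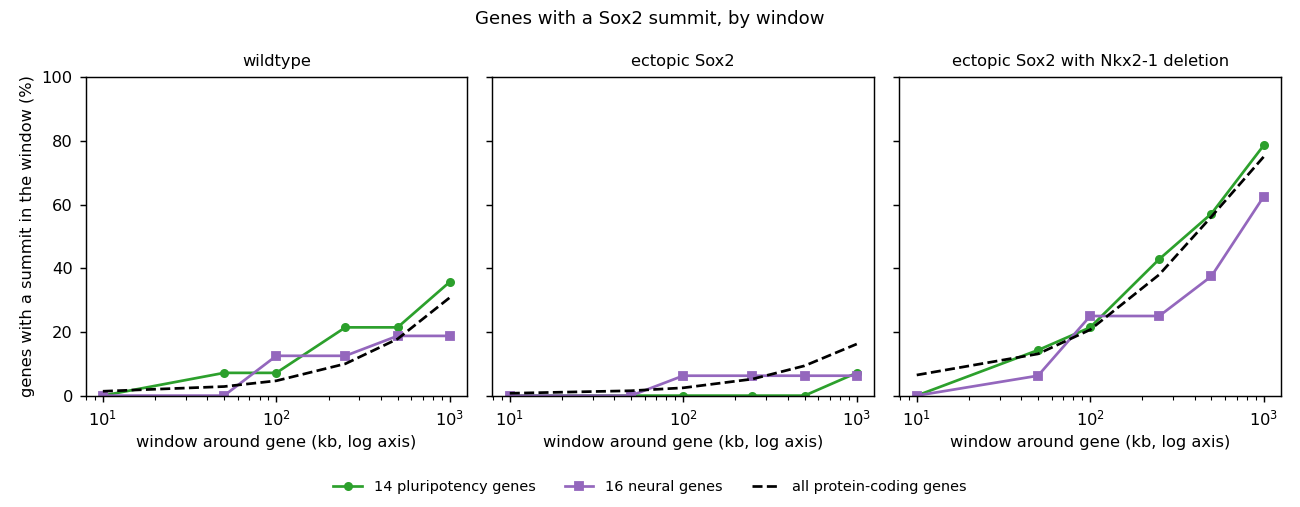
Share of the 14 pluripotency genes and 16 neural genes with a Sox2 summit inside windows of 10 to 1000 kb (log axis), beside all protein-coding genes (dashed), in each library. With Nkx2-1 deletion the pluripotency genes follow the dashed line beyond 10 kb, reaching 78.6% against 75.0%, and the neural genes end below it at 62.5%.

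Wider lists of both programmes were counted in the same way, with no test. They too were chosen with earlier results of these data known and are not independent evidence. Of 28 other pluripotency genes, 4 had a summit within 50 kb in wildtype (14.3%, beside 2.85% of all genes), 1 for ectopic Sox2 (3.57%, beside 1.53%) and 3 for Nkx2-1 deletion (10.7%, beside 13.1%). In wildtype the share was thus above that of all genes, on 4 genes and 3 summits. The wildtype genes were Mycn, Gdf3, Dppa3 and Sall1, of which Gdf3 and Dppa3 share the site in Apobec1. Mycn, a Myc family gene, had a summit 41.4 kb away with 27 fragments in both wildtype and ectopic Sox2. The −log10 q was 8.92 and 15.4 in turn, values that cannot be compared between lists. With Nkx2-1 deletion the genes were Gdf3, Dppa3 and Klf5, and Klf5, an epithelial as well as a stem cell factor that the basal and squamous list also holds, had a summit inside the gene with 66 fragments. Of 33 other neural genes, 2 had a summit in wildtype (6.06%, beside 2.85% of all genes), 0 for ectopic Sox2 (beside 1.53%) and 4 for Nkx2-1 deletion (12.1%, beside 13.1%). In wildtype these were Nfib, with 21 fragments inside the gene, and Sox21, a SoxB2 gene, with 33 fragments 2.82 kb from it. With Nkx2-1 deletion they included Hes1, a Notch effector, with 49 fragments at 12.0 kb, Id4 with 23 fragments at 8.30 kb and Prom1 with 22 fragments at 8.08 kb.

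Genes of squamous and basal epithelium, where Sox2 acts in the oesophagus and airway, were counted beside them. That list of 20 was likewise written with earlier results of these data known and is not independent evidence. It had 4 of 20 genes near a summit in wildtype (beside 2.85% of all genes), 2 for ectopic Sox2 (10.0%, beside 1.53%) and 16 for Nkx2-1 deletion (80.0%, beside 13.1%). The 2 genes for ectopic Sox2, Krt5 and Krt6a, shared 1 summit. The 16 genes for Nkx2-1 deletion rested on 22 summits. Trp63, the basal cell master factor, led with 83 fragments and a −log10 q of 19.9, followed by Dsg3 and Dsc3, desmosomal cadherin genes, at 18.1 and 12.5. The median distance to a summit with Nkx2-1 deletion was 18.8 kb for this list, against 684 kb for the 30 stem cell and neural genes. Of 16 airway and alveolar genes, 0 had a summit in wildtype or with ectopic Sox2 and 4 had one with Nkx2-1 deletion (25.0%, beside 13.1% of all genes): Scgb1a1, Pdpn, Rtkn2 and Cyp2f2.

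**Figure D5:**
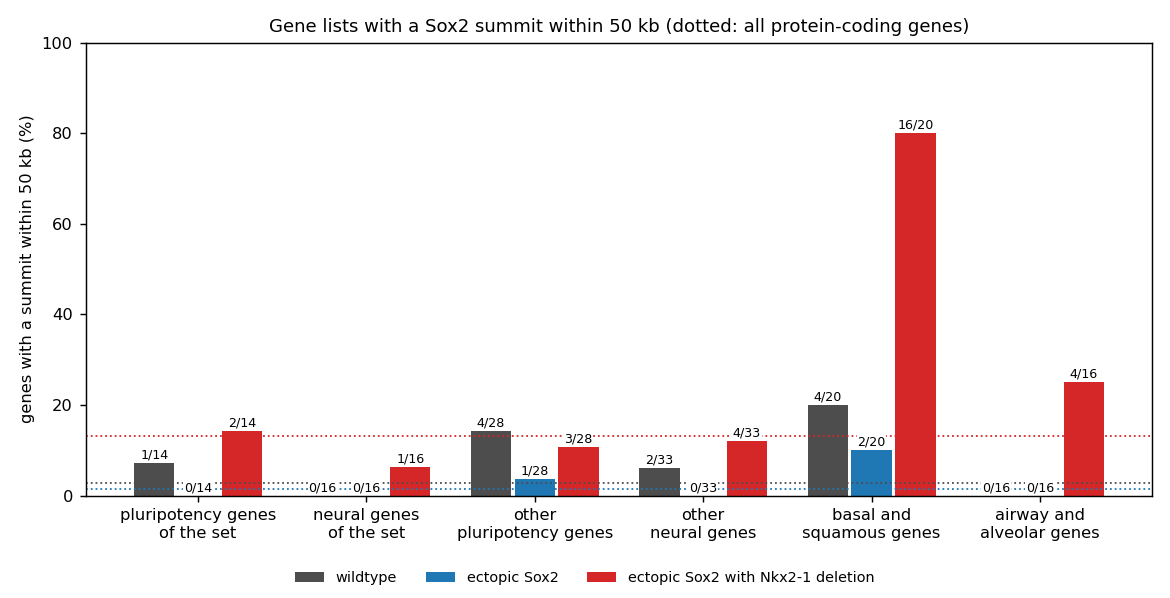
Share of genes in each list with a Sox2 summit within 50 kb, by library, with counts above the bars and the share of all protein-coding genes as dotted lines. The lists were chosen with earlier results of these data known. With Nkx2-1 deletion the stem cell and neural lists lie between 6.25% and 14.3%, around the 13.1% of all genes, and the basal and squamous list is at 80.0%; in wildtype the other pluripotency genes are at 14.3% and the other neural genes at 6.06%, above the 2.85% of all genes.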

How the data were processed

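Sox2 ChIP-seq libraries of wildtype, ectopic Sox2, and ectopic Sox2 with Nkx2-1 deletion cells were used, 1 per group. The other 6 of the 9 libraries (input and IgG) were not analysed here. The submitters' processing notes name Bowtie2 2.2.9, SAMtools 1.4, MACS2 2.1.1, HOMER 4.8.3 and mm10; which control and threshold were used, and whether duplicates were removed, the sources used here do not state. The authors' deposited lists, 1 per library in the narrowPeak layout, give each summit's score, fold ratio over the control background, −log10 p, −log10 q and position (printed counting from 1).

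Whole ChIP fragments were solved from fold and −log10 p (pseudocount 1, Poisson tail, tolerance 0.005), with 1 solution for 99.5%, 99.6% and 99.9% of summits in the 3 lists; the solver was tested on simulated summits. Coverage is the genome-wide background divided by the recovered scale. The lists' fold and q were used only within a list. Gene spans, promoter windows and strands came from RefSeq (GRCm38.p6); exons are not given there, so exons, introns and UTRs were not told apart. Python 3.11.15, scipy 1.17.1, pandas 2.3.3 and numpy 2.4.6 were used.

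The 30 genes and the comparison lists were chosen with earlier results of these data known. The text names all 30 genes, the summits near them with their nearest gene, and up to 4 genes per comparison list by −log10 q. The values of 1 gene of the comparison lists are not reported here. Windows of 10, 100 and 250 kb, nearest gene, a −log10 q of at least 5, removal of regions found in all 3 lists, and region edges were tried, and lists of equal length were added after seeing the data.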

Additional observations from a re-analysis of the deposited data

How the results depend on the processing

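The count of genes near a summit moved mainly with the window and the length of the list. Within 10 kb it was 0 of 30 in wildtype and with Nkx2-1 deletion, and so 0 of the 14 pluripotency genes in both and 0 of the 16 neural genes with Nkx2-1 deletion. The shares of all genes were 1.37% in wildtype and 6.47% with Nkx2-1 deletion. Within 100 kb the counts were 3 of 30 and 2 of 16 neural genes in wildtype, 1 and 1 with ectopic Sox2, and 7 and 4 with Nkx2-1 deletion. Beside these were 4.66%, 2.45% and 20.7% of all genes. Within 250 kb all 30 genes gave 5, 1 and 10 in the same order of libraries, beside 10.0%, 5.19% and 38.0% of all genes. The neural genes gave 2, 1 and 4 there, and the pluripotency genes 3 in wildtype and 6 with Nkx2-1 deletion. By nearest gene, with Nkx2-1 deletion, 1 of 14 pluripotency genes (Zfp42) and 2 of 16 neural genes (Fabp7 and Cdh2) were counted, beside 8.51% of all genes. With −log10 q of at least 5 the wildtype count fell to 0 of 30 and 0 of 14, beside 1.88% of all genes, because the Zfp42 site was weaker. With the 229 highest summits of each list, added after seeing the data, the counts were 0 of 30 and 0 of 14 in wildtype, and 0 of 30, 0 of 14 and 0 of 16 with Nkx2-1 deletion, where 1.48% of all genes were near a summit. The median distance over the 30 genes was then 4538 kb in wildtype and 4463 kb with Nkx2-1 deletion. Without regions found in all 3 lists the ectopic Sox2 median was 7752 kb. No paired analysis was possible because each group has 1 library and the results come from no test, and leaving out a replicate was not possible for the same reason. A site with fewer fragments than the weakest listed summit, 10, 10 and 15 in the 3 libraries, is not seen in these lists.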

Other observations

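With Nkx2-1 deletion, Vim was flanked by summits at 87.5 kb on its 5′ side and at 114.9 and 185 kb on its 3′ side, the last 2 inside St8sia6, a sialyltransferase gene, with 24 and 29 fragments. Fabp7 had a further upstream summit at 140 kb, inside Pkib, with 35 fragments and a fold of 9.80. These sites were named after their values were seen.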
